A study of Homo sapiens with 6 samples.

Results

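Genes whose loss causes cysts of the bile ducts, of the kidney or of both were followed in HuCCT1, an established human cell line from a cholangiocarcinoma, a cancer of the bile duct. Rows of the deposited count table were taken where the symbol was PKHD1, PKD1, PKD2, DZIP1L, PRKCSH, SEC63, GANAB, ALG8, SEC61B or LRP5. These are 10 of 26485 rows, and all 10 were among the 14405 genes tested. The series holds 6 libraries, 3 (a, b and c) from clone 1, labelled wild type, and 3 (a, b and c) from clone 22, labelled AQP1 knockout. Both clones came from CRISPR editing and were grown in plastic flasks in the same serum-containing medium. Each genotype is 1 clone, so the knocked-out gene and the clone cannot be told apart. Whether the letters stand for separate cultures is not labelled, so p-values cover only the spread among these libraries, which could be technical. Values of 3 libraries are always given in the order a, b, c. The title of the series asks about loss of aquaporin-1, a water channel, and a change from epithelial to mesenchymal state.

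Bile duct cells carry a single primary cilium that senses bile flow, and cysts arise when ciliary signalling or duct growth is disturbed. PKHD1 encodes fibrocystin, a large receptor-like membrane protein of the cilium, and its loss causes recessive polycystic kidney disease with fibrosis of the liver. PKD1 and PKD2 encode polycystin-1 and the channel polycystin-2, which form a complex and are lost in dominant polycystic kidney disease, while DZIP1L encodes a protein of the ciliary base. The other members act mostly in the endoplasmic reticulum, where polycystin-1 and other membrane proteins mature. GANAB and PRKCSH are the catalytic and the regulatory subunit of glucosidase II, which trims glucose from N-glycans. ALG8 adds glucose to the lipid-linked glycan before its transfer to protein. SEC61B and SEC63 belong to the channel that brings proteins into the endoplasmic reticulum, and LRP5 is a co-receptor for WNT ligands at the cell surface.

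Promoter sequence is shown for PKHD1, the member with the largest fall, and for PKD1 and PKD2, the members with the largest rises. Each run is the 250 bases before the start site that the RefSeq promoter table uses on GRCh38.p14, written 5′ to 3′ on the strand of the gene. The runs are PKHD1 (minus strand, chr6:52087614-52087863), PKD1 (minus strand, chr16:2135899-2136148) and PKD2 (plus strand, chr4:88007385-88007634). Capitals mark CG dinucleotides, the sites of DNA methylation, which number 1, 35 and 38 in the 3 runs.
PKHD1: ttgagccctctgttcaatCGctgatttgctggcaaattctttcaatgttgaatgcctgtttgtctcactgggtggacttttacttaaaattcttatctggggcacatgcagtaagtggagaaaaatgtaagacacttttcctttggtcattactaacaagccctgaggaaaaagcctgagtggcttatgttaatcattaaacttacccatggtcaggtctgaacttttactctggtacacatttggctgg
PKD1: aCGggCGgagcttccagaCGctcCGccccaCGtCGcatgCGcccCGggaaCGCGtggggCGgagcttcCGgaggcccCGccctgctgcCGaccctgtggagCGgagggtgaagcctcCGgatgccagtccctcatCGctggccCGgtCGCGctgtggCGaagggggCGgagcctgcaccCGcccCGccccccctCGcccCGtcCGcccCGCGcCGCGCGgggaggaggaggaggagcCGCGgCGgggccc
PKD2: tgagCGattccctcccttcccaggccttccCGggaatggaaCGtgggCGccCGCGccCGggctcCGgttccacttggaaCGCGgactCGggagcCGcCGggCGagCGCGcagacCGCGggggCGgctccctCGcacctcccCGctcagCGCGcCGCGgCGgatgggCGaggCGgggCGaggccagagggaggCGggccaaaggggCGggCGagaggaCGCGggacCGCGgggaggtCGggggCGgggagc

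The windows held 300 bases around the start site (250 before, 50 after) and were set beside those of 27305 genes. Their start site is the outer end of the gene in RefSeq for 8 members, lies 2 bases inside it for PKHD1 and lies 14.2 kb inside it for LRP5. No member's window had a CAGGTG or CACCTG box (the same motif on either strand), the letters that ZEB and SNAI factors bind, against 24.1% of all genes. A window without the box says nothing of the factor. The windows differed in CG content. That of PKHD1 held 3 CG dinucleotides, with an observed-to-expected ratio of 0.236 and 41.3% GC, below the medians of all genes at 0.58 and 58.3%. Of all genes, 26.6% had a lower ratio than PKHD1. PKD1 and PKD2 held 44 each, with ratios of 0.932 and 1.02. Other members that fell had ratios of 1.01 (ALG8), 0.934 (LRP5), 0.863 (GANAB) and 0.582 to 0.8 (PRKCSH, over its windows). SEC61B, which rose, had 0.638. SEC63 and DZIP1L were called in neither direction. SEC63 had 0.998, and DZIP1L had 0.681 in 1 window and 0.0496 in another. LRP5 had the highest GC content of the members, at 86.7%.

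The libraries held 36925338 to 41724447 counts. CPM below means counts per 1000000 of the library total, and 3 counts, taken as the floor, equal 0.0719 to 0.0812 CPM. Log2 fold changes use TMM factors, a further scaling in edgeR, so they differ slightly from ratios of CPM. AQP1, the targeted gene, had 2, 8 and 10 counts in wild type and 10, 7 and 7 in the knockout. It was too low to pass the filter on low counts. Added back, it had a log2 fold change of 0.27 (SE 0.626, edgeR quasi-likelihood with Benjamini-Hochberg adjustment, adjusted p = 0.715), and -0.16 without wild-type library a. These counts cannot check the labels, since AQP1 had only 0.161 ± 0.0993 CPM in wild type and an edited gene may keep its transcript. The labelled cell type was checked against 15 bile duct markers. KRT7, KRT8, KRT18 and KRT19 were abundant in both clones, while SCTR, the secretin receptor gene, had no counts in any library. The clones were not alike in these markers. Of the 13 that were tested, 12 were lower in the knockout, and in 8 the fall passed 2-fold. The markers summed to 7454 to 7539 CPM in wild type and 3032 to 3106 CPM in the knockout. KRT7 went from 1751 to 1613 CPM and KRT19 from 755.7 to 93.45 CPM. All 10 members lay above the filter's level of 0.245 CPM in every library, so none passed through 1 group alone.

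In edgeR's quasi-likelihood test with an adjusted p under 0.05, 3 members rose in the knockout (PKD1, PKD2 and SEC61B), 5 fell (PKHD1, GANAB, PRKCSH, ALG8 and LRP5) and 2 did not pass (DZIP1L and SEC63). The 8 calls are 80% of the members, and 74.4% of all tested genes were called, 37.1% higher and 37.2% lower, so the share of members called was close to the background. By at least 2-fold, 2 members differed, PKHD1 lower and PKD2 higher, which is 20% of them against 22.8% of all tested genes (13.7% higher and 9.05% lower). The libraries of the groups did not overlap in CPM in 8 members, as in 77.3% of tested genes. The median absolute log2 fold change was 0.282 in the members and 0.464 in all tested genes. Most members thus differed little in size, and PKHD1, PKD1 and PKD2 stood apart from the other 7.

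**Figure D1:**
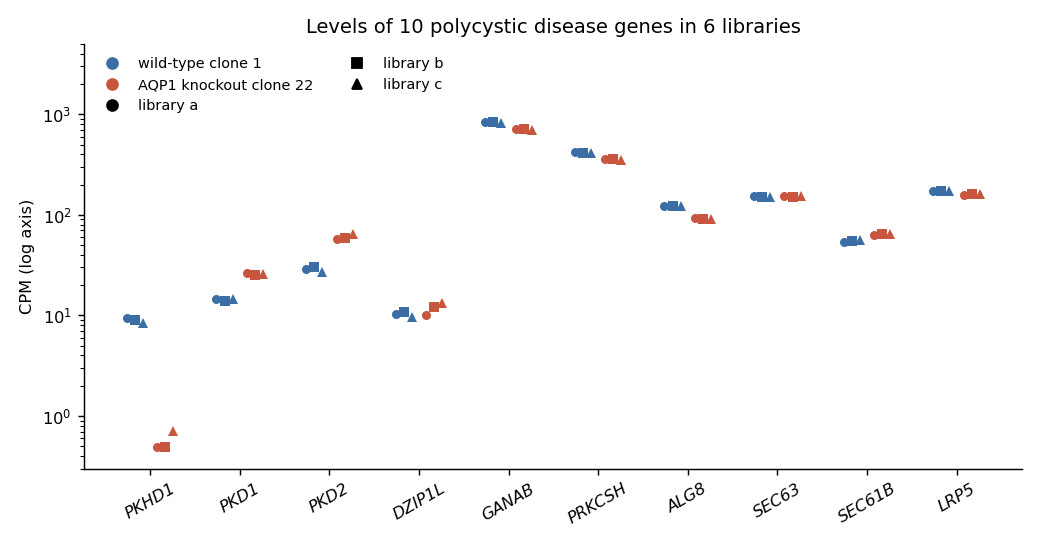
Level of each member in CPM (log axis) in each of 6 libraries, with wild-type clone 1 in blue and knockout clone 22 in red and the letters a, b and c as circles, squares and triangles. PKHD1 drops from about 9 CPM to under 1 CPM, PKD1 and PKD2 are higher in all 3 knockout libraries, and the 2 groups of DZIP1L and of SEC63 overlap.

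PKHD1, the fibrocystin gene (chromosome 6, 51615299 to 52087615, minus strand, 67 exons in its longest transcript, with coordinates from RefSeq on GRCh38.p14 here and below), had 378, 371 and 353 counts in wild type. In the knockout it had 20, 20 and 26. In CPM these were 9.33, 8.98 and 8.46 against 0.490, 0.489 and 0.704. Every knockout library was far below every wild-type library, and knockout library c was the highest of its group. The mean fell from 8.92 ± 0.435 to 0.561 ± 0.124 CPM (SD, n = 3 libraries per group here and below), so the knockout held 6.29% of the wild-type level. The log2 fold change was -4.05 (SE 0.18, edgeR quasi-likelihood with Benjamini-Hochberg adjustment, adjusted p = 1.18e-10). In bulk RNA, fewer cells with the transcript and less transcript per cell cannot be told apart.

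Among 20 transcription factors of biliary and tubular epithelium, 17 were tested, of which 5 rose and 9 fell, with a median log2 fold change of -0.27. GRHL2, which maintains epithelial junction genes, fell from 105 ± 2.38 to 8.32 ± 0.242 CPM, and EHF, an epithelial ETS factor, from 347.6 ± 3.74 to 53.1 ± 0.610 CPM. ZEB1 and ZEB2, repressors of epithelial genes, rose from 6.26 ± 0.845 to 83.6 ± 1.32 CPM and from 0.526 ± 0.174 to 7.19 ± 0.428 CPM. Bile duct markers fell with PKHD1: 12 of 13 tested fell, none rose, and their summed level was between 7454 and 7539 CPM in wild-type libraries and between 3032 and 3106 CPM in knockout libraries. CDH1 and EPCAM, an epithelial cadherin and an adhesion molecule, had the largest falls among them, at -3.80 and -3.63 on the log2 scale. CFTR, the chloride channel of bile duct cells, named outside the rule, did not pass at 1.83 ± 0.0805 and 1.94 ± 0.190 CPM.

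Markers of other cell types were also measured beside PKHD1. Of 10 fibroblast markers 7 were tested and 4 rose, led by DCN (near the floor in wild type and tested only through the knockout) and PDGFRA, with COL1A2 and COL3A1 near 0 and summed levels of 17.4 to 19.4 CPM in wild type and 38.0 to 40.4 CPM in the knockout. Of 10 hepatocyte markers 3 were tested and 2 rose, SERPINA1 and FGB (tested only through the knockout), with sums of 53.8 to 57.8 and 86.6 to 92.5 CPM and with APOB, TTR and CYP3A4 at 0 in all libraries. Leukocyte markers summed to 110 to 115 and 206 to 213 CPM, with CD14 and CD68 higher, CSF1R lower, ITGAM called higher but tested only through the knockout, CD68 (109 and 207 CPM) making up nearly all of the sum, and PTPRC and MS4A1 at 0. Endothelial markers summed to 2.42 to 2.94 and 4.01 to 4.31 CPM, with 4 tested, of which TIE1 was called higher but owed its place among tested genes to the knockout. Kidney epithelial markers summed to 19.9 to 20.9 and 15.9 to 18.2 CPM, with both tested genes, PAX8 and CUBN, lower and UMOD, CDH16 and SLC12A1 at 0. The part of these markers in the fall of PKHD1 was not tested.

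Genes with the profile most like that of PKHD1 over the 6 libraries were found by the Euclidean distance between log2 CPM values centred on each gene's mean. They were ELMO3 (distance 0.196), FAM25A (0.25) and LRRN4 (0.266), at 21.5 ± 0.397, 17.9 ± 1.31 and 29.6 ± 0.700 CPM in wild type. In the knockout they had 1.54 ± 0.267, 1.13 ± 0.180 and 2.13 ± 0.488 CPM. Since they were chosen for a like profile, a fall on the scale of PKHD1 was set by the choice. All 3 were higher than PKHD1 in both clones in CPM. For PKD2 the closest were SLC40A1 (distance 0.0859), NR1D1 (0.0887) and ZMYND10 (0.0945). Their log2 fold changes of 1.00, 1.05 and 1.13 were likewise set by the choice. In wild type ZMYND10, at 0.251 CPM, was near the filter's level of 0.245 CPM, and it had 0.574 CPM in the knockout.

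Polycystin genes moved the other way. PKD2, the channel subunit (chromosome 4, 88007635 to 88077777, plus strand, 15 exons), had 29.1, 30.3 and 27.2 CPM in wild type and 57.6, 59.3 and 65.2 CPM in the knockout. The groups were well apart, with knockout library c the highest and wild-type library c the lowest of the 6. PKD2 rose from 28.9 ± 1.53 to 60.7 ± 3.97 CPM, a log2 fold change of 1.02 (SE 0.0621, edgeR quasi-likelihood with Benjamini-Hochberg adjustment, adjusted p = 3.52e-09). It sat at the edge of 2-fold: without wild-type library c the log2 fold change was 0.97 and without knockout library c 0.99, and the count of members past 2-fold was then 1.

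PKD1, the receptor-like subunit (chromosome 16, 2088708 to 2135898, minus strand, 46 exons), had 14.55, 13.89 and 14.55 CPM in wild type. The knockout had 26.6, 25.03 and 26.1 CPM, each above all of the wild type. It rose from 14.3 ± 0.380 to 25.9 ± 0.787 CPM, a ratio of 1.81 by library totals. With TMM factors the log2 fold change was 0.80 (SE 0.0591, edgeR quasi-likelihood with Benjamini-Hochberg adjustment, adjusted p = 2.71e-08). PKD1 is uncertain for 2 reasons. Near-identical pseudogenes lie elsewhere on the chromosome, and how reads shared with them were counted is not stated. Of these, PKD1P1 (1.24 ± 0.523 and 1.44 ± 0.821 CPM) and PKD1P6 (3.19 ± 1.07 and 4.32 ± 0.690 CPM) had rows and did not pass. TSC2, a growth-control gene on the opposite strand, named outside the rule, shares 778 exon bases with PKD1 in GENCODE 29, which is 4.2% of the exon bases of PKD1. TSC2 rose from 32.8 ± 0.678 to 44.1 ± 1.69 CPM, and its part in the rise of PKD1 was not tested.

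DZIP1L, the ciliary base gene (chromosome 3, 138061990 to 138115608, minus strand), had 10.3, 10.8 and 9.61 CPM in wild type and 10.1, 12.1 and 13.4 CPM in the knockout. Knockout library a lay among the wild-type libraries, while b and c were above them. The log2 fold change of 0.16 (SE 0.106) did not pass (edgeR quasi-likelihood with Benjamini-Hochberg adjustment, adjusted p = 0.193). Without knockout library a it was 0.27 and passed, with an adjusted p of 0.0303.

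Of 16 relatives and pseudogenes of these ciliary members, 12 had rows and 7 were tested, of which 5 rose, none fell and 2 did not pass, with a median of 0.73 on the log2 scale. Of all tested genes 37.1% were called higher. Among the rises, DZIP1 (1.70 to 2.50 CPM) and PKD1L2 (1.52 to 2.61 CPM), named outside the rule, were low. Their adjusted p were 0.0499 and 0.0196 in edgeR's quasi-likelihood test, the former barely under the threshold. TRPC1, a cation channel subunit known to pair with polycystin-2, rose from 4.93 ± 0.479 to 26.6 ± 0.984 CPM (log2 fold change 2.37). PKDREJ, a testis relative of PKD1, had 0.0802 ± 0.0733 and 0.666 ± 0.215 CPM, and, near the floor in wild type, owed its place among tested genes to the knockout. Without it 4 of 6 rose, with a median of 0.61. PKHD1L1, the closest relative of PKHD1, named outside the rule, was too low to be tested at 0.268 ± 0.131 and 0.110 ± 0.0535 CPM. PKD2L1 had no counts.

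**Figure D2:**
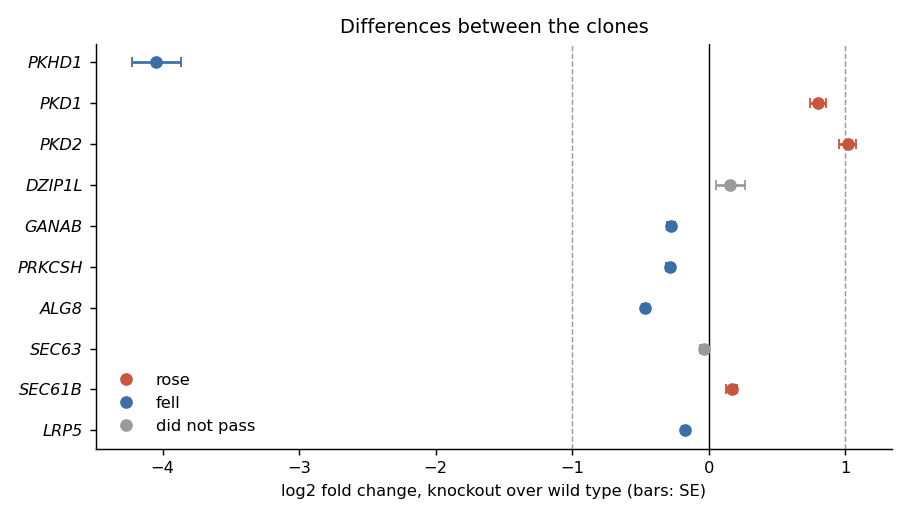
Log2 fold change of each member, knockout over wild type, with bars for the SE, red for rose, blue for fell and grey for did not pass, and dashed lines at 2-fold. PKHD1 at -4.05 lies far from the rest, PKD1 and PKD2 lie at 0.80 and 1.02, and the other 7 lie between -0.47 and 0.17.

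Both subunits of glucosidase II were slightly lower. GANAB, the catalytic subunit gene (chromosome 11, 62624829 to 62646613, minus strand), had 831, 842 and 813 CPM in wild type and 719, 720.0 and 691 CPM in the knockout. PRKCSH, the regulatory subunit gene (chromosome 19, 11435635 to 11450968, plus strand), had 422, 415 and 415 CPM against 358, 360.1 and 348 CPM. Neither gene's groups overlapped, and in both genes knockout library c was the lowest of the 6. GANAB fell from 829 ± 14.8 to 709.9 ± 16.7 CPM and PRKCSH from 418 ± 4.05 to 355 ± 6.61 CPM, to 85.7% and 85.0% of wild type. Their log2 fold changes were -0.28 (SE 0.0268, adjusted p = 4.52e-07) and -0.29 (SE 0.0251, adjusted p = 1.54e-07) in edgeR's quasi-likelihood test with Benjamini-Hochberg adjustment.

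ALG8, the glucosyltransferase gene (chromosome 11, 78100946 to 78139626, minus strand), had the largest fall of the endoplasmic reticulum members. Wild type had 122, 121 and 123 CPM and the knockout 93.1, 91.6 and 90.2 CPM, well apart. It fell from 121.9 ± 0.655 to 91.6 ± 1.45 CPM (log2 fold change -0.47, SE 0.0269, edgeR quasi-likelihood with Benjamini-Hochberg adjustment, adjusted p = 1.95e-09).

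The translocon members differed from each other. SEC61B, the small beta subunit of the channel (chromosome 9, 99222282 to 99230615, plus strand), had 54.0, 55.1 and 55.8 CPM in wild type and 63.2, 64.9 and 64.1 CPM in the knockout. It rose from 55.0 ± 0.926 to 64.1 ± 0.844 CPM, with no overlap (log2 fold change 0.17, SE 0.0417, edgeR quasi-likelihood with Benjamini-Hochberg adjustment, adjusted p = 0.00247). SEC63, which recruits the chaperone BiP to the channel (chromosome 6, 107867756 to 107958208, minus strand), had 153, 151.5 and 149 CPM in wild type and 153, 151.6 and 155 CPM in the knockout. The groups of SEC63 overlapped. Its log2 fold change of -0.04 (SE 0.0245) did not pass (adjusted p = 0.193 in the same test), and it was 0.02 when libraries were scaled by their totals.

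LRP5, the WNT co-receptor (chromosome 11, 68298412 to 68449275, plus strand), had 174, 173 and 174 CPM in wild type and 158, 162 and 159 CPM in the knockout. The wild-type libraries were nearly alike and all above the knockout. It fell from 173.7 ± 0.412 to 159.7 ± 2.16 CPM (log2 fold change -0.18, SE 0.0244, edgeR quasi-likelihood with Benjamini-Hochberg adjustment, adjusted p = 1.8e-05). Its closest relative LRP6 rose from 127.5 ± 3.15 to 227.8 ± 8.35 CPM (log2 fold change 0.78), the opposite direction.

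Levels of different genes can be set side by side only per length, here as CPM per kilobase of the longest coding transcript in GENCODE 29. In wild type the order was GANAB (212 ± 3.78), PRKCSH (189 ± 1.83), SEC61B (93.7 ± 1.58), ALG8 (72.7 ± 0.391), LRP5 (33.7 ± 0.0800), SEC63 (23.6 ± 0.276), PKD2 (5.71 ± 0.302), DZIP1L (2.93 ± 0.167), PKD1 (1.01 ± 0.0269) and PKHD1 (0.548 ± 0.0267). No neighbours in that order overlapped in their libraries. The order in the knockout was the same, also with no overlap, from GANAB at 182 ± 4.28 to PKHD1 at 0.0345 ± 0.00761 CPM per kilobase. The 5 genes of the endoplasmic reticulum lay above the 4 ciliary genes in both clones, and the gap was narrower in the knockout, where SEC63 was at 23.9 ± 0.255 and PKD2 at 12 ± 0.785 CPM per kilobase. With the union of all exons as the length the order was the same.

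Ratios of CPM per kilobase within a library were compared in 4 pairs. LRP5 was paired with its relative LRP6, which is not a member, and the other pairs are members that work as partners. With 3 libraries against 3, an exact two-sided permutation test cannot give a p below 0.1. The ratio of PKD1 to PKD2 was 0.179, 0.164 and 0.191 in wild type and 0.165, 0.151 and 0.143 in the knockout. The groups overlapped, although both genes had risen (exact permutation p = 0.2, adjusted over the 4 pairs 0.267). GANAB to PRKCSH was 1.12 ± 0.0215 in wild type and 1.13 ± 0.00674 in the knockout, a difference well within the spread of the wild type (exact permutation p = 0.5, adjusted 0.5). The level of this ratio rests on the length chosen, and with union exon lengths it was 2.04 and 2.05. LRP6 and LRP5 had log2 fold changes of 0.78 and -0.18, so the change in their ratio came mostly from LRP6. SEC61B to SEC63 went from 3.97 ± 0.113 to 4.57 ± 0.0922 and LRP5 to LRP6 from 2.65 ± 0.0705 to 1.36 ± 0.0436. In those 2 pairs the groups did not overlap, and each had the smallest p the design allows (exact permutation p = 0.1, adjusted 0.2). With union exon lengths SEC61B to SEC63 was 2.62 and 3.02. The length cancels in the comparison between clones.

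**Figure D3:**
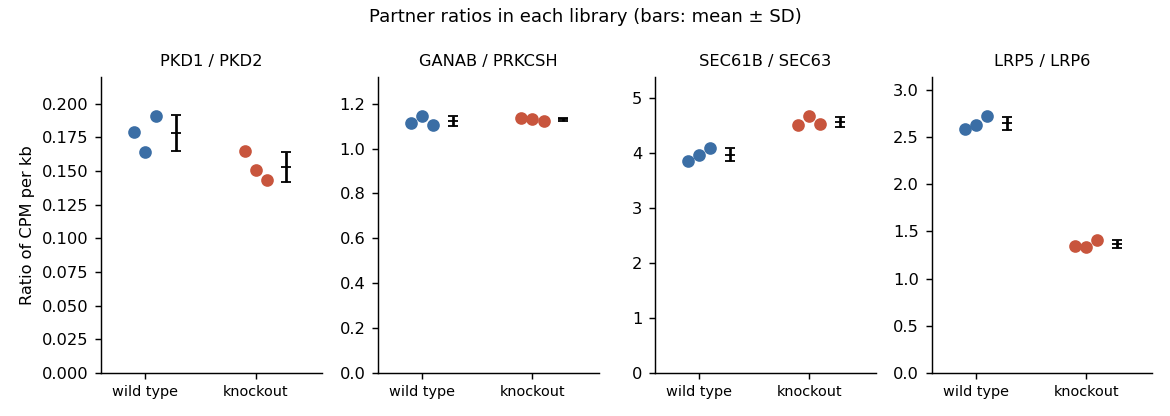
Ratios of CPM per kilobase of 4 pairs (LRP6 is not a member) in each library, wild type in blue and knockout in red, with black bars for mean ± SD over 3 libraries and each axis starting at 0. GANAB to PRKCSH stays near 1.1 in all 6 libraries, while LRP5 to LRP6 drops from 2.65 to 1.36.

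Partners of the members were followed by lists. Of 32 genes of the translocon and signal recognition, all were tested; 10 rose, 19 fell and 3 did not pass, none by 2-fold, with a median log2 fold change of -0.14. SRPRA (in the table as SRPR), the receptor for the signal recognition particle, fell from 326.6 ± 2.88 to 179 ± 5.21 CPM, and the co-chaperone gene DNAJB9 from 17 ± 0.753 to 9.32 ± 1.203 CPM. DNAJC1 rose from 36.5 ± 3.33 to 71.5 ± 0.378 CPM and SRP14, a particle subunit, from 182 ± 3.997 to 293.8 ± 9.24 CPM. SEC61B, with its small rise, therefore stood beside partners of both directions.

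Of 26 genes of the glycoprotein folding cycle around glucosidase II, 15 rose, 10 fell and 1 did not pass, with a median of 0.15 on the log2 scale. MAN1A1, a Golgi mannosidase gene, rose from 6.01 ± 0.223 to 30.02 ± 0.804 CPM, and UGGT2, which encodes a relative of the enzyme that puts glucose back on misfolded glycoproteins, from 18.6 ± 0.625 to 43.8 ± 2.003 CPM. The disulfide isomerase genes PDIA4 (372 ± 2.13 to 209 ± 4.50 CPM) and P4HB (1273 ± 6.05 to 914 ± 7.43 CPM) fell, and these had larger log2 changes (-0.88 and -0.53) than GANAB and PRKCSH.

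Of 35 genes that build the lipid-linked glycan or transfer it, the pathway of ALG8, 10 rose, 19 fell and 6 did not pass, none by 2-fold, with a median of -0.18. ALG3, a mannosyltransferase gene, fell from 120.2 ± 4.195 to 64.4 ± 1.44 CPM and DHDDS, which makes dolichol precursors, from 49.5 ± 2.07 to 30.8 ± 0.264 CPM. ALG5 rose from 24.1 ± 1.59 to 38.3 ± 0.873 CPM and ALG11 from 5.37 ± 0.211 to 7.78 ± 0.794 CPM. ALG8 was on the side of the majority of this list.

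Of 30 genes of other cystic or ciliary disorders of kidney and liver, 28 were tested, of which 13 rose and 11 fell, with a median of -0.02. Over the 27 genes that reached the filter's level in every library, 13 rose and 10 fell, and the median was 0.025. DNAJB11, an endoplasmic reticulum co-chaperone gene whose loss gives atypical dominant polycystic kidney disease, fell from 157 ± 3.62 to 77.0 ± 1.06 CPM (log2 fold change -1.09), more than any endoplasmic reticulum member. TMEM67, a ciliary transition zone gene that is also a cause of hepatic fibrosis, rose from 6.93 ± 0.579 to 16.7 ± 0.985 CPM. The other large rise was in LRP6, the relative of LRP5 that was placed on this list.

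Of 32 genes that act with LRP5 in WNT reception, 25 were tested, of which 16 rose, 8 of them by 2-fold, and 7 fell, with a median of 0.46. FZD8 was tested only through the knockout, and the 24 others had a median of 0.43. AXIN2, a feedback target of WNT signalling, rose from 0.687 ± 0.301 to 5.75 ± 0.726 CPM and LRP4 from 1.86 ± 0.0826 to 12.7 ± 1.154 CPM. DKK1, an inhibitor that binds LRP5 and LRP6, fell from 532 ± 19.4 to 260.3 ± 6.24 CPM and the receptor gene FZD3 from 16.4 ± 1.13 to 8.45 ± 0.690 CPM.

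Cyclic AMP and calcium, the messengers that are disturbed when polycystins are lost, were covered by 32 genes, of which 27 were tested, 14 rose and 6 fell, with a median of 0.26. ITPR1, a calcium release channel of the endoplasmic reticulum, rose from 1.58 ± 0.347 to 9.85 ± 0.676 CPM. PRKAR2B, a regulatory subunit of protein kinase A, had 0.129 ± 0.0991 and 5.75 ± 0.163 CPM, and likewise owed its place among tested genes to the knockout, as did PDE1A and RAPGEF4. Among the 23 genes that reached the filter's level in every library, 11 rose and 6 fell, with a median of 0.19. The regulatory subunits PRKAR2A (66.0 ± 0.745 to 49.2 ± 0.548 CPM) and PRKAR1A (473 ± 7.74 to 377 ± 4.07 CPM) fell. Of 25 genes for cleavage and transport of polycystins and fibrocystin, 24 were tested, of which 14 rose and 6 fell, with a median of 0.24, or 0.19 without RAB11FIP3, which was tested only through the knockout. FURIN, a proprotein convertase, fell from 41.0 ± 0.311 to 23.0 ± 0.617 CPM and NEDD4L, a ubiquitin ligase, from 339 ± 5.49 to 165 ± 6.07 CPM. CAMLG rose from 13.3 ± 1.89 to 34.9 ± 1.96 CPM and BBS1, a subunit of the complex that carries proteins into cilia, from 21.4 ± 1.11 to 40.1 ± 2.47 CPM.

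**Figure D4:**
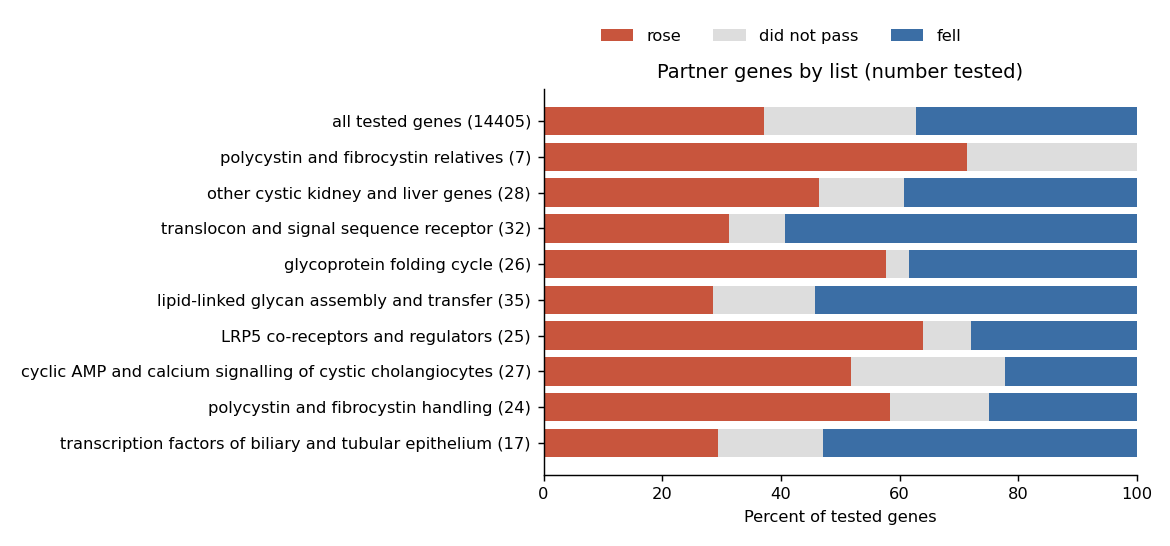
Percent of tested genes that rose (red), did not pass (grey) or fell (blue) in each of 9 lists of partner genes and in all 14405 tested genes, with the number tested in brackets. The lists of the translocon and of lipid-linked glycans have more falls than rises (19 against 10 each), and the list around LRP5 has more rises (16 against 7).

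Positions along the chromosomes were compared, since neighbours of these genes also differed between the clones. Tested genes within 5 Mb on either side of a member were taken without the member. The 31 neighbours of PKHD1 had a median log2 fold change of -0.02 (11 rose and 13 fell), and within 1 Mb the 10 neighbours had 0.22. MCM3, the nearest tested gene at 176 kb, had 247 and 232 CPM, and PAQR8 at 275 kb rose from 4.16 to 14.6 CPM. Only 3.23% of the 31 neighbours had a lower log2 fold change than PKHD1. Nearest tested genes are named outside the rule here and below.

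PKD1 lay above 94.3% of its 140 neighbours, whose median was -0.08, and PKD2 above 93.3% of its 30 neighbours, with a median of -0.01. Flanking genes of PKD2 rose more than it did. SPP1, the osteopontin gene, ends 24.2 kb from PKD2 and had 0.296, 0.242 and 0.336 CPM in wild type against 11.5, 12.3 and 10.3 CPM in the knockout (log2 fold change 5.22). ABCG2, an export pump gene 12.5 kb away on the other side, rose from 5.23 ± 0.513 to 18.4 ± 1.47 CPM (log2 fold change 1.76). The next tested genes outward, NUDT9 at 548 kb and PPM1K at 180 kb, fell by 0.43 and fell by 0.52 on the log2 scale.

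GANAB and LRP5, both on chromosome 11, stood in stretches of lowered genes. The 224 neighbours of GANAB had a median of -0.45 (32 rose, 147 fell) and the 187 neighbours of LRP5 one of -0.44 (29 rose, 122 fell). These windows share 141 genes, which is 62.9% of the neighbours of GANAB and 75.4% of those of LRP5, so they are not separate observations. Both members fell by less than the median around them, at -0.28 and -0.18. ALG8, further along chromosome 11, had 55 neighbours with a median of -0.21, and 14 within 1 Mb with a median of -0.02. PRKCSH, which fell as GANAB did, had 196 neighbours on chromosome 19 with a median of -0.004. DZIP1L, SEC63 and SEC61B had neighbours with medians of -0.13, -0.07 and 0.03, and within 1 Mb the sign turned for SEC63 (0.17) and SEC61B (-0.24). None of the 10 neighbours of SEC61B within 1 Mb rose and 7 fell, and SEC61B lay above all 10. The sign also turned within 1 Mb for PKD2 (0.08) and PRKCSH (0.03). The part of the surrounding stretch in the falls of GANAB and LRP5 was not tested.

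**Figure D5:**
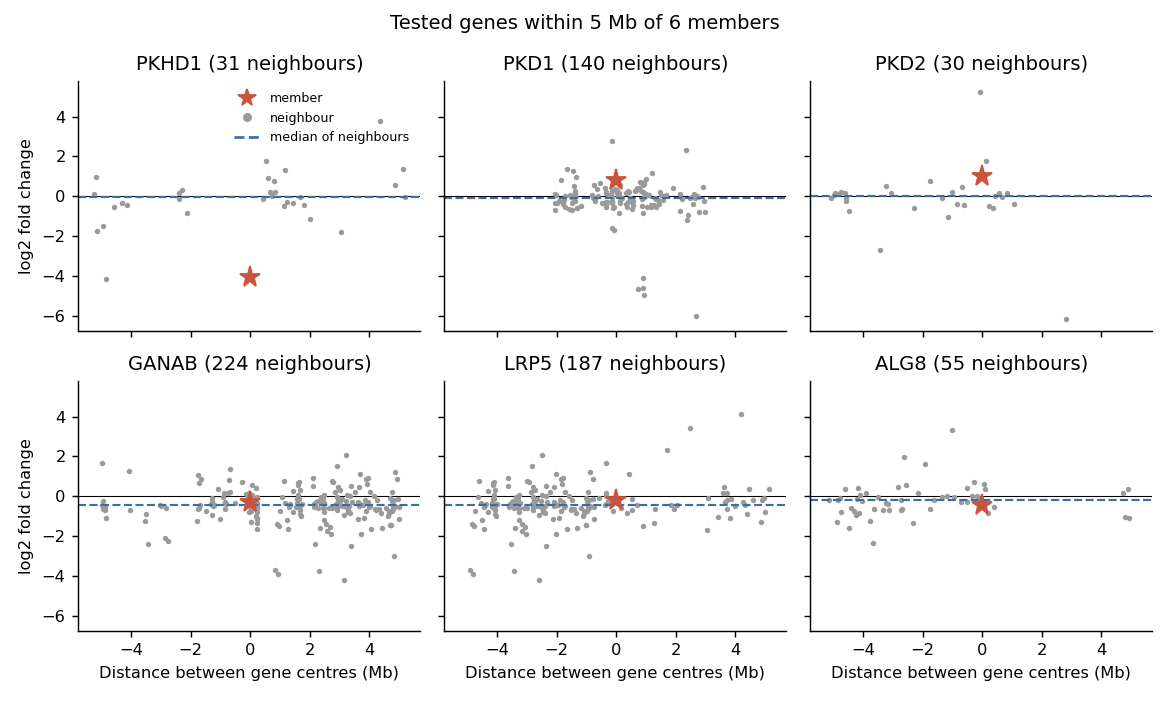
Log2 fold change of tested genes within 5 Mb of 6 members (grey) against the distance between gene centres in Mb, with the member as a red star at 0 and the median of its neighbours as a dashed blue line. PKHD1 at -4.05 lies far below a median of -0.02, PKD1 and PKD2 lie above their medians, and GANAB and LRP5 lie within bands centred at -0.45 and -0.44.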

How the data were processed

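PolyA RNA of 6 HuCCT1 libraries was sequenced after TruSeq stranded mRNA preparation, per the labels' protocols. The authors deposited whole-number read counts per gene symbol, not normalized. Tools named in the submitters' processing notes are HISAT2, Trimmomatic 0.33, edgeR and FastQC, with build hg38. Which program counted reads, with which annotation and strand setting, is not given in the sources used here. The members and gene lists were chosen with earlier results of these data known.

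Levels are CPM of library totals. The test was edgeR's (4.0.16, R 4.3.3, filterByExpr filter, TMM factors, quasi-likelihood F test over 6 libraries, no covariate, Benjamini-Hochberg over 14405 genes, threshold 0.05). The procedure was also run on simulated counts. Far fewer genes differed there than were called here, so that run does not check this setting. SE is the log2 fold change over the square root of F. Of 26485 rows, 7009 were 0 in all libraries. Between-library chi-square over its degrees of freedom ranged from 4.18 to 7.6 within a group, so no library was a copy. Lengths came from GENCODE 29, coordinates and promoters from RefSeq on GRCh38.p14, the assembly of hg38. RefSeq held a promoter window for all 10 members. Named genes were the members, AQP1, and per list the 2 top rises and 2 top falls among called genes, some of which are not reported here, and the 3 genes most like each member past 2-fold. Other genes (further markers, pseudogenes, overlapping and flanking genes, genes tested through 1 group) were named after their values were seen. Alternatives were DESeq2 1.42.0, limma-voom (limma 3.58.1), RLE factors, library totals, leaving the filter out, at least 1 CPM in 3 libraries, the letters as a block, each library left out, an adjusted p of 0.01 and glmTreat against 1.5-fold.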

Additional observations from a re-analysis of the deposited data

How the results depend on the processing

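Of 150 values of the 10 members under the alternatives, 143 kept their direction and their side of the threshold. Against a 1.5-fold change with glmTreat, 3 members were called (PKHD1, PKD1 and PKD2) in place of 8, and 4354 genes in all in place of 10711, since that test asks for a larger difference. The count of members past 2-fold was 1 to 2 when each library was left out in turn. Signs reversed to 0.018 for SEC63 with library totals and, without wild-type library a, to -0.16 for AQP1 (leave-one-out range -0.158 to 0.658); the cause was not tested. No pairing of the libraries by letter was evident: correlations of same-letter deviations were 0.0577, -0.0195 and 0.00822. The highest correlation between unlike letters was 0.0409, for wild-type library c with knockout library b. With the letters as a replicate block, 8 members and 10599 genes were called, and not every library correlated best with its own letter. Leave-one-out ranges of the log2 fold change were -4.21 to -3.95 for PKHD1, 0.77 to 0.83 for PKD1 and 0.97 to 1.06 for PKD2. Median shifts of all genes were 0.0056 with TMM and 0.0595 with library totals. With library totals the log2 fold change was -0.22 for GANAB, -0.12 for LRP5 and 0.22 for SEC61B. Counts of 20 to 26 limit the precision of PKHD1 in the knockout. TSC2, SPP1, ABCG2, LRP6, DNAJB11, ZEB1 and GRHL2 were added to the alternatives after seeing the data, as were union exon lengths.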
